A study of Mus musculus with 30 samples.

Results

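The genes described here encode secreted factors that act on blood vessels and on epithelial growth, together with the neuropilin receptors. They are Vegfa, Thbs1, Adm, Hbegf, Areg, Ereg, Nrp1 and Nrp2, chosen by gene symbol. Each was read from its probe set with 1 gene symbol and the highest mean over all 30 arrays. Of the 8 listed genes 7 were found among 18194 genes, and Areg was not analysed here. The samples were CD11b+ cells, which carry an integrin of granulocytes, monocytes and macrophages, enriched with magnetic beads. They were hybridised to Affymetrix MOE430 2.0 arrays in 10 groups of 3. The tumor-bearing groups of BALB/c mice were spleen cells of mice with C26-GM tumors, infiltrate cells of C26-GM tumors and infiltrate cells of 4T1 tumors, set against cells from healthy BALB/c spleens. The C57BL/6 groups were infiltrate cells of EL-4 and of MCA203 tumors, set against cells from healthy C57BL/6 spleens. The cultures, BALB/c marrow grown 4 days in GM-CSF plus IL-6 or in GM-CSF plus G-CSF, were set against fresh BALB/c marrow. C26-GM is a colon carcinoma line that secretes GM-CSF, 4T1 is a mammary carcinoma line, EL-4 is a lymphoma line and MCA203 is a fibrosarcoma line. The arrays of healthy C57BL/6 spleen carry C57BL/6 in their titles and strain labels but BALB/c in their source labels, and the titles were followed. Age, sex and any pooling of mice are not given in the sources used here, and nothing in the labels says that the arrays of a group came from separate mice. The p-values therefore measure the spread between these arrays, which may be technical. Infiltrate cells had no control other than spleen, so each such comparison holds the difference in organ as well.

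Vascular endothelial growth factor A, the product of Vegfa, is the main signal for new vessel growth and is induced when oxygen is low. It acts through the receptors Flt1 and Kdr, and the neuropilins Nrp1 and Nrp2 are co-receptors that bind it and also bind class 3 semaphorins. Thrombospondin 1, from Thbs1, is a matrix glycoprotein of platelets and myeloid cells that inhibits vessel growth through Cd36 and Cd47 and activates latent TGF-beta. Adrenomedullin, from Adm, is a vessel-dilating and vessel-growth peptide that acts through Calcrl paired with a RAMP protein. Heparin-binding EGF-like growth factor, amphiregulin and epiregulin, from Hbegf, Areg and Ereg, are membrane-bound ligands of the EGF receptor family that are released by the sheddase Adam17. Myeloid cells that gather in tumors are known as a source of several of these factors.

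Vegfa, Adm and Nrp2 were higher in both 4T1 and EL-4 infiltrates, and the 250 bases before their starts are given here because hypoxia-response and GC-rich letters can be looked for in them. Promoter windows were in the RefSeq table used here (build GRCm38.p6) for 5 of the 8 listed genes. Nrp1, which was also higher in both, is not shown, since its window does not lie at the outermost start of the gene. Thbs1 and Hbegf were higher in both as well, but no window was there for them. Capitals mark the hypoxia-response core ACGTG or GCGTG, or its reverse complement CACGT or CACGC, and the GC box GGGCGG, or its reverse complement CCGCCC. The windows are chr17:46032378-46032627 on the minus strand for Vegfa, chr7:110627407-110627656 on the plus strand for Adm and chr1:62703067-62703316 on the plus strand for Nrp2, each written 5′ to 3′ along the gene.
Vegfa: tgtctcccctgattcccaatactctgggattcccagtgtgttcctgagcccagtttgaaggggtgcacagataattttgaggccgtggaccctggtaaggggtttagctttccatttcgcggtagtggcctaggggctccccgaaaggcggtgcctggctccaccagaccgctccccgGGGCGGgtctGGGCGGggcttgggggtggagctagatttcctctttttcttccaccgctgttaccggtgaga
Adm: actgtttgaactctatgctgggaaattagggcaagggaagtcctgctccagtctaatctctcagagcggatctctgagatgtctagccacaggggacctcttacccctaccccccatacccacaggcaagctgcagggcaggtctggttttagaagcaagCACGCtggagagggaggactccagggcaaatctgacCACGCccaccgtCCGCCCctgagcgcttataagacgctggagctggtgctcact
Nrp2: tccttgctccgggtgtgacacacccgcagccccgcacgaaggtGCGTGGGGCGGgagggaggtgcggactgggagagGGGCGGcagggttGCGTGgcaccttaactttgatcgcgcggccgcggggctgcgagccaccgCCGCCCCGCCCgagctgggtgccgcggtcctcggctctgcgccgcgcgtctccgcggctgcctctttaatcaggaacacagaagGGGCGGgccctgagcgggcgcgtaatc
The Adm window held the hypoxia core at 90 and 54 bases before the start and a GC box at 42 bases. The Nrp2 window held the core at 207 and 160 bases, the first of them directly followed by a GC box, and 5 GC boxes in all, of which those at 111 and 106 bases overlap by a base. The Vegfa window held GC boxes at 72 and 62 bases and no hypoxia core, which says only that these letters are not in this window. Among all 32851 windows of this length, 38.6% held a core and 32.7% a GC box, so such a match is common.

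The deposited values were log2 expression from RMA, a method that corrects background, normalises arrays to each other and summarises probes, so a difference of 1 is a 2-fold change. A gene was called changed at an adjusted p of limma below 0.05 and at least a 2-fold change, in 1 fit over all 30 arrays. Array medians ran from 4.85 to 5.15, and correlations between arrays of a group from 0.941 to 0.995. Summed signal of 6 CD11b-positive myeloid markers lay between 23400 and 44500 on the linear scale in every group, so the enriched type was present throughout. Granulocyte markers summed to 1960 to 3080 in EL-4 and 1920 to 2660 in MCA203 infiltrates, against 55000 to 61700 in healthy C57BL/6 spleens. On the third C26-GM tumor array the 3′ signal of actin exceeded the 5′ signal by 2.42, against 0.01 to 0.68 on the other arrays. The 6 C26-GM arrays also had Xist at 5.15 to 6.47 and the Y-linked Eif2s3y at 8.11 to 8.95, against 10.06 to 11.12 and 2.16 to 2.70 on the other 24 arrays, so wherever a C26-GM group is set against another group, the sex of the mice and the tumor cannot be told apart. That does not touch C26-GM infiltrates against C26-GM spleens, which share the pattern. Among the culture arrays, 4 had a narrow spread of values (interquartile range 2.54 to 2.60) and 2 a wide one (3.28 to 3.37), against 3.11 to 3.21 in fresh marrow.

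Of the 7 genes, all 7 were higher in 4T1 infiltrates than in healthy BALB/c spleens, where 6.83% of all genes were called higher and 5.44% lower (12.3% either way). The median change of the 7 was 2.49, beside -0.01 over all genes. In EL-4 infiltrates 6 rose against healthy C57BL/6 spleens (6.42% of all genes called higher and 4.40% lower, 10.8% either way), with a median of 1.92 beside 0.02, and only Ereg was not called. In MCA203 infiltrates 3 rose, namely Vegfa, Thbs1 and Nrp1 (5.01% of all genes called higher and 5.42% lower, 10.4% either way). In C26-GM infiltrates Vegfa, Thbs1 and Hbegf rose and Nrp1 fell (4.26% of all genes called higher and 7.13% lower, 11.4% either way). In C26-GM spleens Thbs1 alone rose (2.32% of all genes called higher and 3.83% lower, 6.14% either way). The 3 BALB/c comparisons share their control arrays, as do the 2 C57BL/6 comparisons, so they are not independent of each other. The 7 genes were chosen with earlier results of these data known, so their counts and medians are not those of a blind choice. In bulk preparations such as these, fewer cells of a type and less RNA per cell cannot be told apart.

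**Figure D1:**
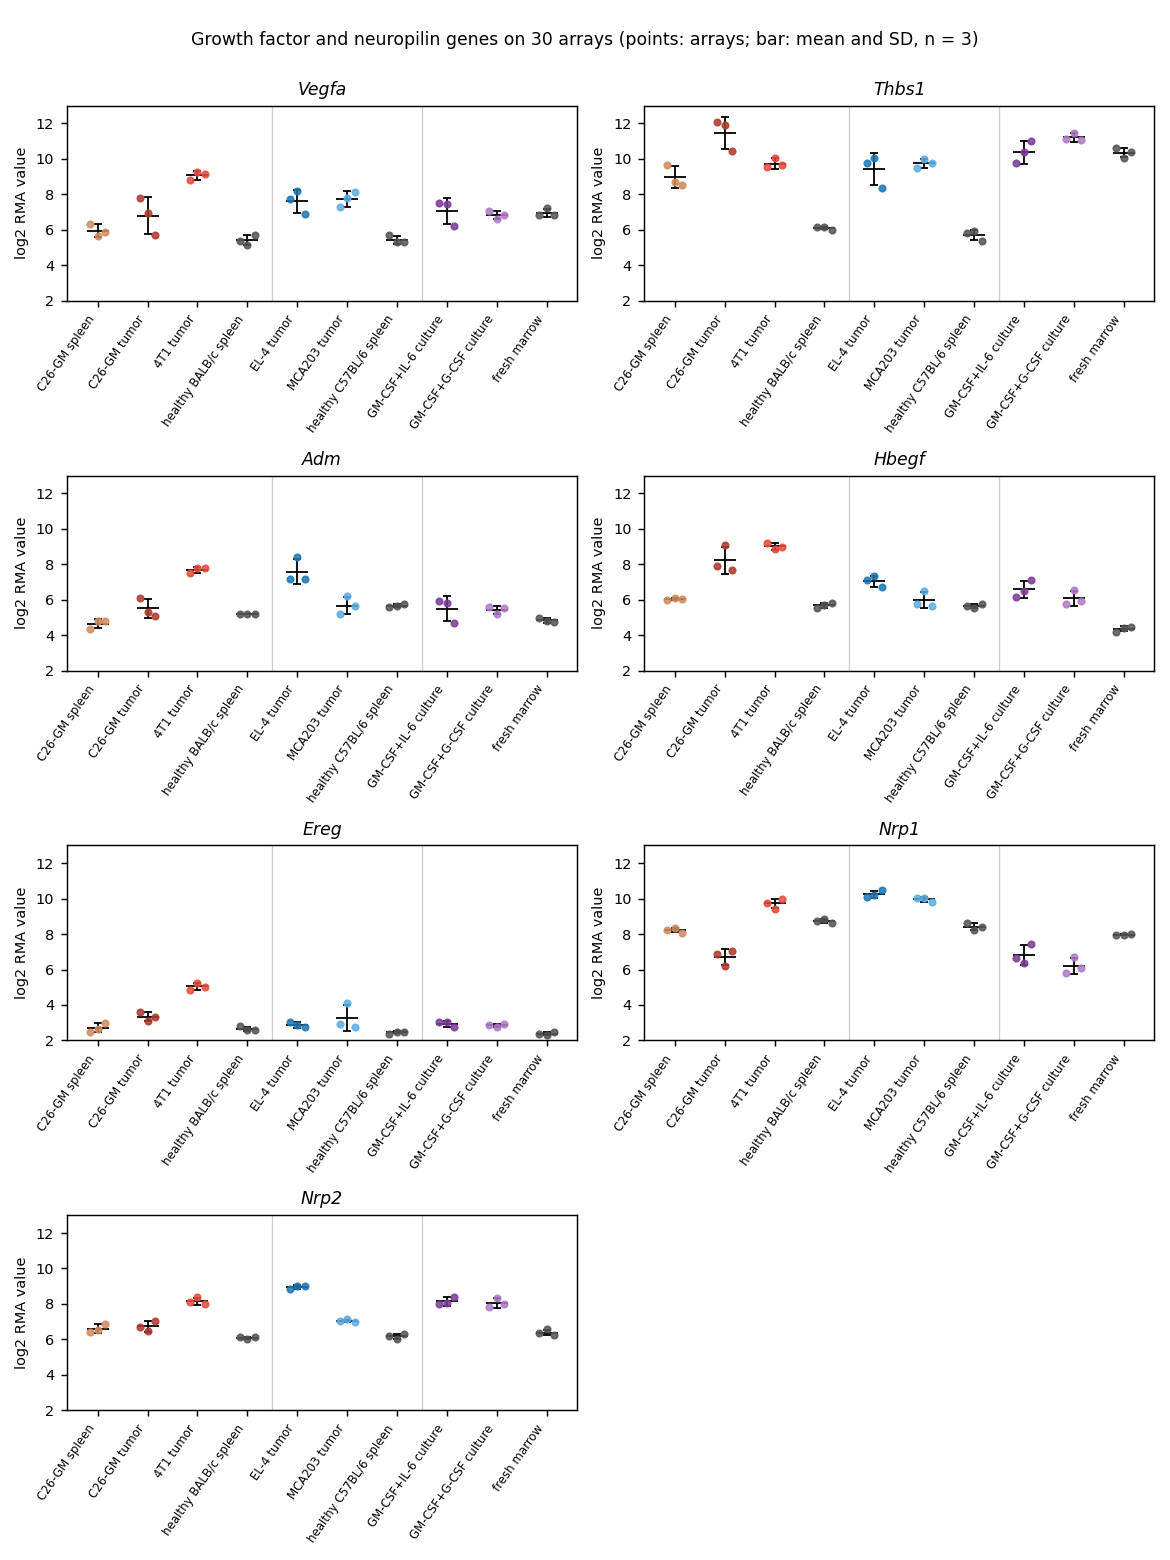
Log2 RMA values of the 7 genes on all 30 arrays, with 1 point per array and a bar at the mean with its SD (n = 3 in each of 10 groups). Thbs1 spans the widest range of group means (5.78), and Nrp1 is the gene with a tumor group, C26-GM infiltrate, below its healthy spleen by over 2-fold.

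**Figure D2:**
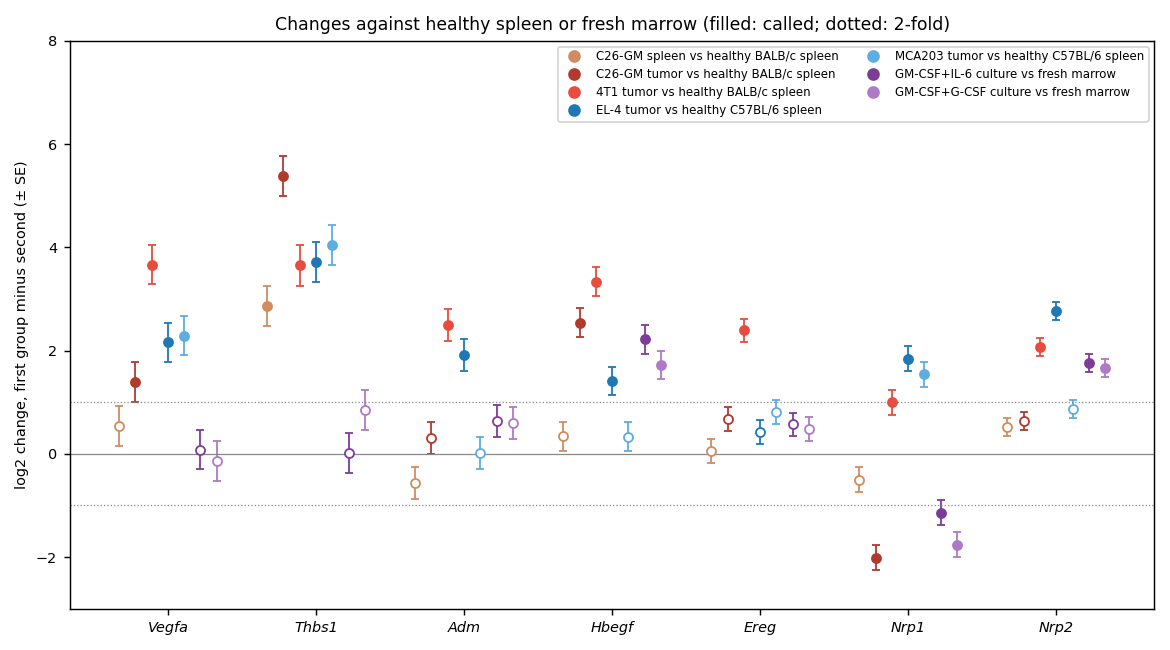
Log2 change with its SE for each gene in 5 tumor-bearing groups against healthy spleen of the same strain and in 2 cultures against fresh marrow. Filled points were called, open points were not, and dotted lines mark 2-fold. Thbs1 is filled in all 5 tumor-bearing groups and Ereg in 4T1 infiltrates alone.

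Vegfa stood highest in 4T1 infiltrates, at 8.79, 9.28 and 9.17, against 5.40, 5.16 and 5.70 in healthy BALB/c spleens, and the groups did not overlap. The change was 3.66 ± 0.38 (SE, n = 3 each, adjusted p of limma 2.11e-08), or 12.7-fold. MCA203 infiltrates read 7.26, 7.82 and 8.11 and EL-4 infiltrates 7.74, 8.18 and 6.89, against 5.69, 5.34 and 5.29 in healthy C57BL/6 spleens. All 6 of those infiltrate arrays lay above the spleens, with changes of 2.29 ± 0.38 in MCA203 and 2.16 ± 0.38 in EL-4. The C26-GM infiltrates scattered over more than 2 log2 units, at 7.77, 6.95 and 5.69, and the lowest, the array with the high actin ratio, fell within the range of the healthy spleens. The rise there of 1.39 ± 0.38 (adjusted p of limma 0.00714) was 0.91 (adjusted p 0.0801) without the first C26-GM tumor array, which ends the call, and 1.95 without the third. C26-GM spleens read 6.34, 5.65 and 5.88, overlapped the healthy spleens and were not called (0.54 ± 0.38, adjusted p 0.418). Next to healthy BALB/c spleen, fresh marrow was also higher in Vegfa, at 6.82, 7.23 and 6.84 (1.54 ± 0.38, adjusted p 0.00253).

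In order of group means, Vegfa ran from 9.08 ± 0.26 (SD) in 4T1 infiltrates through 7.73 ± 0.43 in MCA203 and 7.60 ± 0.66 in EL-4 infiltrates to 5.42 ± 0.27 in healthy BALB/c spleens. Only 4T1 was separated from the next group, and every other pair of neighbours in that order overlapped. The direct comparison of 4T1 with C26-GM infiltrates gave 2.27 ± 0.38 (adjusted p of limma 4.06e-05), and EL-4 with MCA203 gave -0.13 ± 0.38 with a 95% interval of -0.92 to 0.65.

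Vegfa has a further probe set, whose mean over all arrays (6.879) nearly equals that of the probe set used (6.887). Both called the 4 infiltrates and fresh marrow higher than their spleens. They differed in call between C26-GM infiltrates and C26-GM spleens (0.85 on the probe set used, not called, and 1.23 on the other, called) and in both cultures. On the probe set used, GM-CSF and IL-6 cultures read 7.51, 7.43 and 6.19 and GM-CSF and G-CSF cultures 7.07, 6.59 and 6.82, against 6.82, 7.23 and 6.84 in fresh marrow, with changes of 0.08 ± 0.38 and -0.14 ± 0.38. On the other, the cultures read 5.99, 6.19 and 6.19 with IL-6 and 5.91, 6.24 and 6.13 with G-CSF, against 8.20, 7.75 and 7.99 in fresh marrow. All 6 culture arrays lay below the marrow there, and Vegfa was called lower by that probe set (changes of -1.86, adjusted p of limma 5.62e-05, and -1.89, adjusted p 4.48e-05, in a fit over all probe sets). Which transcripts each probe set reads was not tested, so no direction can be given for Vegfa in the cultures.

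**Figure D3:**
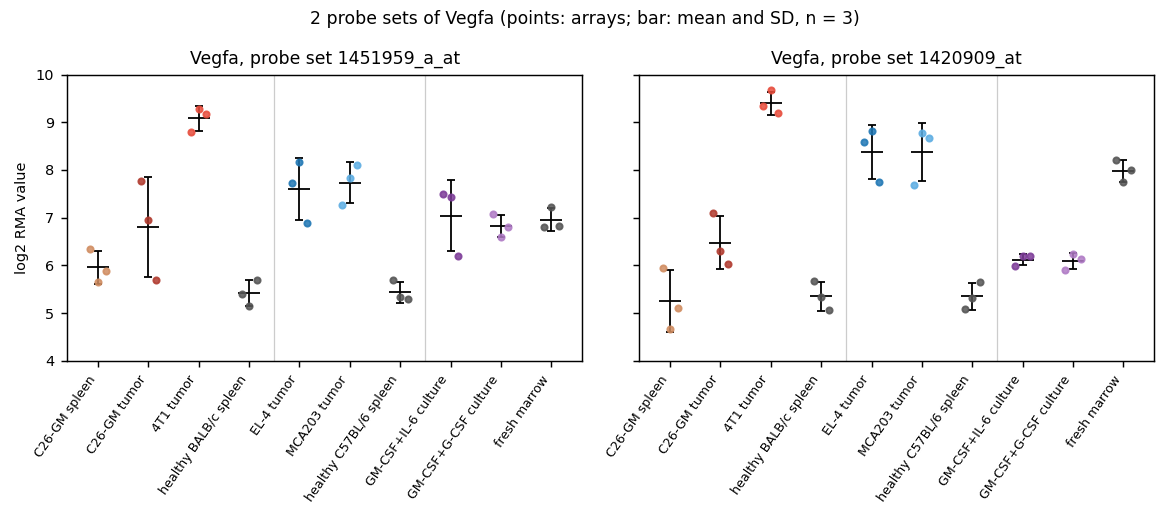
Log2 RMA values of Vegfa on all 30 arrays by each of its 2 probe sets, with group means and SD (n = 3). The infiltrates lie above the healthy spleens on both, apart from 1 C26-GM array on the left, while the cultures lie near fresh marrow on the left and below it on the right.

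Placental growth factor, Pgf, a relative of Vegfa that binds Flt1, rose in C26-GM (2.07 ± 0.27), 4T1 (1.66 ± 0.27) and EL-4 infiltrates (1.13 ± 0.27) and in both cultures (1.62 ± 0.27 with IL-6 and 1.38 ± 0.27 with G-CSF). Vegfb rose in EL-4 infiltrates (1.45), and Vegfc, the ligand of lymphatic vessels, fell in C26-GM spleens (-1.89) and in C26-GM (-1.95), EL-4 (-1.44) and MCA203 infiltrates (-1.16). Of the signalling receptors, neither Flt1 (changes of 0.13 to 0.68) nor Kdr (-0.25 to 0.21) was called in any of the 7 comparisons with healthy spleen or fresh marrow. The summed signal of 9 endothelial markers, Kdr among them, was 509 to 1000 in the 4 infiltrates, against 632 to 875 in healthy spleens of both strains, but single markers differed. In EL-4 infiltrates 3 of the 9 were called higher and 0 lower, with Emcn at a mean of 5.73, against 3.29 in healthy C57BL/6 spleens, and Cdh5 at 6.88, against 5.32. Of the 9, 1 was called higher in each of the 4T1, C26-GM and MCA203 infiltrates, and 1 was called lower in MCA203 infiltrates. Of all genes 6.83%, 4.26% and 5.01% were called higher there in that order, and 5.42% lower in MCA203 infiltrates. With 9 markers such counts are near those shares. In 4T1 infiltrates Emcn averaged 5.51, against 3.28 in healthy BALB/c spleens. The part of endothelial cells in the values of Vegfa and the neuropilins was not tested.

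Of 17 measured genes of the response to low oxygen, 13 rose and 0 fell in 4T1, 14 rose and 1 fell in EL-4, 10 rose and 1 fell in C26-GM and 9 rose and 1 fell in MCA203 infiltrates, with list medians of 1.87, 1.42, 1.13 and 1.06 beside -0.01, 0.02, 0.11 and 0.14 over all genes. Of all genes 6.83%, 6.42%, 4.26% and 5.01% were called higher and 5.44%, 4.40%, 7.13% and 5.42% lower, in that order. The prolyl hydroxylase Egln3 changed by 4.24, 3.08, 3.49 and 1.06 in that order, the glucose transporter Slc2a1 by 3.13, 2.18, 2.80 and 2.08 and the mitophagy protein Bnip3 by 2.69, 2.44, 2.36 and 1.91. Ddit4 of the same list was called lower in 5 and higher in 0 of the 7 comparisons with healthy spleen or fresh marrow (-1.55 to 0.25). In C26-GM spleens 0 genes of the list were called by limma (median 0.34 beside 0.09), and 9 had an unadjusted p below 0.05. In the cultures the list was split, with 3 rising and 5 falling with IL-6 and 2 rising and 5 falling with G-CSF, beside 5.00% of all genes called higher and 9.07% lower with IL-6 and 4.48% higher and 9.37% lower with G-CSF. Its medians were 0.22 and 0.28, beside 0.12 and 0.14.

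Thbs1 was called higher in every tumor-bearing group. C26-GM infiltrates read 12.08, 11.89 and 10.46 and C26-GM spleens 9.67, 8.70 and 8.52, against 6.14, 6.14 and 6.01 in healthy BALB/c spleens. Every C26-GM array lay more than 2 log2 units above every healthy one. The change was 5.38 ± 0.39 in the infiltrates (adjusted p of limma 2.45e-11), or 41.6-fold, and 2.87 ± 0.39 in the spleens (adjusted p 4.81e-06), or 7.29-fold. The infiltrates also lay above the spleens of the same tumor (2.51 ± 0.39, adjusted p 3.21e-05). 4T1 infiltrates read 9.52, 10.07 and 9.63, with a change of 3.65 ± 0.39, and stood below C26-GM infiltrates (-1.73 ± 0.39, adjusted p 0.00102).

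In C57BL/6 mice Thbs1 read 9.77, 10.07 and 8.38 in EL-4 and 9.47, 10.02 and 9.75 in MCA203 infiltrates, against 5.81, 5.91 and 5.38 in healthy spleens. The changes were 3.71 ± 0.39 and 4.05 ± 0.39, and the 2 infiltrates overlapped. Fresh marrow already carried a high signal of 10.63, 10.07 and 10.37, above healthy BALB/c spleens by 4.26 ± 0.39. GM-CSF and IL-6 cultures at 9.75, 10.36 and 11.01 overlapped fresh marrow (0.01 ± 0.39). GM-CSF and G-CSF cultures at 11.12, 11.48 and 11.04 lay above all marrow arrays but were not called (0.85 ± 0.39, adjusted p 0.0799). A term for the narrow and wide array sets gave 1.31 and a call there, and renormalising the compared arrays gave 1.02 and a call. The healthy spleens of both strains held the low end of the gene.

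Thbs1 is a platelet granule protein, and Pf4, a platelet chemokine, was higher in each tumor-bearing group, with a mean of 11.35 in 4T1 infiltrates, against 7.47 in healthy BALB/c spleens, and 11.17 in EL-4 infiltrates, against 6.35 in healthy C57BL/6 spleens. The other platelet markers did not all move alike. Ppbp averaged 8.74 in C26-GM spleens, 7.43 in C26-GM infiltrates and 7.87 in 4T1 infiltrates, against 5.87 in healthy BALB/c spleens. Of 7 platelet and megakaryocyte markers, 3 were called higher and 0 lower in C26-GM spleens, 2 and 1 in C26-GM infiltrates, 2 and 1 in 4T1, 1 and 1 in EL-4 and 1 and 0 in MCA203 infiltrates, with median changes of 0.98, 0.20, -0.19, 0.03 and 0.04. Of all genes 2.32%, 4.26%, 6.83%, 6.42% and 5.01% were called higher there and 3.83%, 7.13%, 5.44%, 4.40% and 5.42% lower, in that order. The summed signal of 7 platelet and megakaryocyte markers was 878 to 3020 in C26-GM spleens, 1450 to 2880 in C26-GM infiltrates and 2930 to 3300 in 4T1 infiltrates, against 546 to 614 in healthy BALB/c spleens. It was 2110 to 3330 in EL-4 and 1240 to 1690 in MCA203 infiltrates, against 448 to 491 in healthy C57BL/6 spleens. In the cultures the sum was 1170 to 1540 with IL-6 and 820 to 856 with G-CSF, against 1730 to 3160 in fresh marrow. In each culture 3 markers were called lower, beside 9.07% of all genes with IL-6 and 9.37% with G-CSF. On the linear scale Pf4 made up most of the sum in each infiltrate group, so the sum says little of the other markers. Mean Pf4 was 10.18 in MCA203 infiltrates, against 6.35 in healthy C57BL/6 spleens, and 11.35 in 4T1 infiltrates, against 7.47 in healthy BALB/c spleens. The Thbs1 changes there were 4.05 ± 0.39 and 3.65 ± 0.39. The part of platelets in the Thbs1 signal was not tested. Of the related thrombospondins, Thbs2 rose in C26-GM (1.85) and 4T1 infiltrates (1.10), and Thbs3 in MCA203 infiltrates (1.35). The receptor Cd36 rose in both cultures (3.66 ± 0.35 with IL-6 and 3.04 ± 0.35 with G-CSF) and in EL-4 infiltrates (1.50 ± 0.35), and fell in C26-GM, 4T1 and MCA203 infiltrates (-1.16, -1.16 and -1.06), whereas Cd47 was called in none of the 7 comparisons (-0.55 to 1.0).

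Adm divided the infiltrates into a high and a low pair that cut across strain. It read 7.49, 7.76 and 7.80 in 4T1 infiltrates, against 5.21, 5.19 and 5.19 in healthy BALB/c spleens, and 7.17, 8.41 and 7.18 in EL-4 infiltrates, against 5.60, 5.63 and 5.76 in healthy C57BL/6 spleens. Neither high group overlapped its spleens, with changes of 2.49 ± 0.31 (adjusted p of limma 4.3e-07) and 1.92 ± 0.31 (adjusted p 2.68e-05). C26-GM infiltrates at 6.12, 5.31 and 5.09 and MCA203 infiltrates at 5.21, 6.18 and 5.62 overlapped their healthy spleens, with changes of 0.31 ± 0.31 and 0.01 ± 0.31, the second with a 95% interval of -0.63 to 0.64. The contrast of 4T1 with C26-GM infiltrates was 2.18 ± 0.31 (adjusted p 4.2e-06) and that of EL-4 with MCA203 infiltrates 1.92 ± 0.31 (adjusted p 7.19e-05). C26-GM spleens, at 4.34, 4.78 and 4.81, lay below the healthy spleens without being called (-0.56 ± 0.31). The probe set used for Adm is of a type that the array's maker marks as able to cross-hybridise, and the other probe set gave the same calls in all 14 comparisons.

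Parts of the adrenomedullin receptor moved in opposite directions. Ramp3 rose in C26-GM (1.68 ± 0.21), 4T1 (1.92 ± 0.21), EL-4 (1.38 ± 0.21) and MCA203 infiltrates (1.24 ± 0.21) and in the IL-6 and G-CSF cultures (2.41 ± 0.21 and 2.16 ± 0.21). Ramp1, which pairs with Calcrl as the receptor of the related peptide CGRP, fell in 6 of 7 comparisons, from -1.50 in EL-4 to -3.16 in C26-GM infiltrates, and was -0.68 in 4T1 infiltrates. Calcrl fell in C26-GM spleens (-2.31 ± 0.27), in C26-GM (-3.26 ± 0.27) and 4T1 infiltrates (-1.15 ± 0.27) and in the G-CSF culture (-1.25 ± 0.27). Pam, the enzyme that amidates adrenomedullin, rose in C26-GM spleens (1.26) and 4T1 infiltrates (1.31).

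Hbegf stood highest in the BALB/c infiltrates. It read 9.20, 8.86 and 8.95 in 4T1 and 7.88, 9.08 and 7.70 in C26-GM infiltrates, against 5.52, 5.68 and 5.82 in healthy BALB/c spleens. All 6 infiltrate arrays lay above the spleens, with changes of 3.33 ± 0.28 (adjusted p of limma 5.08e-10), or 10.1-fold, in 4T1 and 2.54 ± 0.28 (adjusted p 6.89e-08) in C26-GM infiltrates. Those 2 infiltrates overlapped, and the difference between them (0.79 ± 0.28) was under 2-fold, and ran from 0.53 to 1.22 with each array left out, called without the second C26-GM tumor array. The other Hbegf probe set gave -0.17 for that difference, so its direction is unsettled. C26-GM spleens at 5.97, 6.07 and 6.02 were not called (0.34 ± 0.28), and the infiltrates stood above them by 2.20 ± 0.28. EL-4 infiltrates at 7.12, 7.31 and 6.69 rose against 5.64, 5.52 and 5.73 in healthy C57BL/6 spleens (1.41 ± 0.28), and MCA203 infiltrates at 5.77, 6.48 and 5.65 overlapped them (0.33 ± 0.28).

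The mean tumor effect on Hbegf was smaller in the C57BL/6 models than in the BALB/c models by 2.06 log2 units (-2.06 ± 0.35, adjusted p of limma 0.000157). Strain and tumor line are confounded in that contrast and cannot be told apart. Hbegf was called higher in EL-4 than in MCA203 infiltrates (1.08 ± 0.28, adjusted p 0.00958), but under 2-fold without the second EL-4 array (0.94), the first MCA203 array (0.98) or the third MCA203 array (0.92), and 0.75 by its other probe set. In the cultures Hbegf read 6.16, 6.47 and 7.12 with IL-6 and 5.73, 6.57 and 5.92 with G-CSF, against 4.20, 4.40 and 4.47 in fresh marrow, so that every culture array lay above every marrow array. The changes were 2.22 ± 0.28 with IL-6 and 1.72 ± 0.28 with G-CSF. They were 1.96 and 1.47 with the narrow culture arrays alone and 2.76 and 2.21 with the wide ones alone. Fresh marrow was called lower than healthy BALB/c spleen (-1.32 ± 0.28), but the other probe set of Hbegf gave -0.17 and no call.

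Ereg was near the floor of the array in most groups, with a mean of 3.055 that places it at percentile 7.13 of all genes. The exception was 4T1 infiltrates, at 4.85, 5.27 and 5.03, against 2.80, 2.61 and 2.58 in healthy BALB/c spleens. The groups were apart by 2.39 ± 0.23 (adjusted p of limma 3.69e-09), and 4T1 infiltrates also stood above C26-GM infiltrates, at 3.60, 3.09 and 3.32 (1.71 ± 0.23, adjusted p 1.34e-06). In MCA203 infiltrates Ereg read 2.92, 4.13 and 2.75, so that 1 array was high, against 2.39, 2.50 and 2.49 in healthy C57BL/6 spleens, and the change of 0.81 ± 0.23 was under 2-fold. It was 0.38 without the high array and 1.07, which was called, without the third MCA203 array. EL-4 infiltrates at 3.07, 2.85 and 2.74 were not called (0.43 ± 0.23). A change on the log2 scale understates that of a gene so close to the floor.

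Epithelial markers were also high where Ereg was. The summed signal of 7 such markers was 5600, 3560 and 5300 in 4T1 infiltrates, against 222 to 230 in healthy BALB/c spleens, with Krt8 at 9.90 to 10.98 and Krt18 at 10.56 to 11.29, against 4.40 to 4.70 and 4.83 to 5.13. The sum of 8 fibroblast markers was 1610 to 2310 in 4T1 infiltrates, against 199 to 243 in those spleens, and it was 1480 to 2400 in EL-4 and 862 to 2220 in MCA203 infiltrates, against 174 to 193 in healthy C57BL/6 spleens. In EL-4 infiltrates the epithelial sum was 10900, 640 and 1430, against 191 to 217 in healthy C57BL/6 spleens. The EL-4 array with the highest Adm (8.41) and Vegfa (8.18) had the lowest epithelial sum but the highest fibroblast sum (2400). Ereg itself stayed at 3.07 on the EL-4 array with the epithelial sum of 10900. The MCA203 array with the high Ereg (4.13) had the highest epithelial sum (1340) and fibroblast sum (2220) of its group. The part of tumor or stromal cells in the values of these infiltrates was not tested.

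Of 8 further ligands measured, Nrg4 rose in C26-GM infiltrates (1.07), and none was called in 4T1 infiltrates by limma, where 0 also had an unadjusted p below 0.05. With 8 genes and 11.4% and 12.3% of all genes called in those comparisons, such counts are near the share of all genes. Egfr (-0.27 to 0.58), Erbb2 (-0.66 to 0.10) and the sheddase Adam17 (-0.20 to 0.83) were called in none of the 7 comparisons with spleen or marrow. Rhbdf1, an inactive rhomboid that carries Adam17 to the surface, rose in 4T1 infiltrates, at 7.37 ± 0.19 (SD), against 5.00 ± 0.25 in healthy BALB/c spleens (2.37 ± 0.37, adjusted p of limma 1.15e-05). Erbb3 rose in EL-4 infiltrates (1.16).

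Nrp1 was the only gene of the 7 called in both directions among the tumor-bearing groups. It read 9.77, 9.44 and 9.97 in 4T1 infiltrates and 6.87, 6.20 and 7.07 in C26-GM infiltrates, against 8.73, 8.84 and 8.61 in healthy BALB/c spleens. The 4T1 arrays all lay above the spleens and the C26-GM arrays all below them. The change was -2.01 ± 0.24 in C26-GM infiltrates (adjusted p of limma 1.81e-07), and the 2 infiltrates differed by 3.01 ± 0.24 (adjusted p 2.17e-10), or 8.07-fold. The rise in 4T1 infiltrates, 1.0 ± 0.24 (adjusted p 0.00182), sat at the 2-fold limit and was 0.80 as the mean of all Nrp1 probe sets and 0.88 without the third 4T1 array, both under it, as it was without the first 4T1 array (0.98) or the third healthy BALB/c array (0.94). The dimmest Nrp1 probe set gave -0.08 there, and over the 14 comparisons it shared 3 of the 9 calls of the probe set used. All 4 probe sets of Nrp1 called C26-GM infiltrates lower than healthy spleen (-2.01, -1.23, -1.73 and -1.42) and 4T1 infiltrates higher than C26-GM infiltrates (3.01, 2.28, 2.97 and 1.34).

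C26-GM spleens, at 8.25, 8.34 and 8.08, lay below the healthy spleens by less than 2-fold (-0.50 ± 0.24), and the C26-GM infiltrates lay below those spleens (-1.51 ± 0.24, or -0.86 and no call by the next brightest probe set). By the dimmest probe set C26-GM spleens averaged 5.37, against 6.49 in healthy BALB/c spleens, which is more than 2-fold. In C57BL/6 mice Nrp1 read 10.09, 10.21 and 10.46 in EL-4 and 10.05, 10.01 and 9.81 in MCA203 infiltrates, against 8.63, 8.22 and 8.38 in healthy spleens. All 6 infiltrate arrays were above the spleens, with changes of 1.84 ± 0.24 and 1.54 ± 0.24. The dimmest probe set averaged 7.09 in each of these infiltrates, against 6.64 in the spleens, which is under 2-fold. The mean tumor effect on Nrp1 was higher in the C57BL/6 than in the BALB/c models by 2.20 ± 0.29 (adjusted p of limma 5.46e-06), a contrast in which the 2 BALB/c effects have opposite signs. The summed signal of 7 monocyte and macrophage markers ran with Nrp1 in BALB/c mice. It was 6790 to 8900 in C26-GM and 33400 to 37500 in 4T1 infiltrates, against 24300 to 25600 in healthy BALB/c spleens. In EL-4 infiltrates, however, that sum was 22300 to 28200 and overlapped the 22900 to 26700 of healthy C57BL/6 spleens, while Nrp1 did not overlap. In MCA203 infiltrates it was 32600 to 39100, above those spleens, as was Nrp1. Single markers differed. Of the 7, 0 were called higher and 6 lower in C26-GM, 1 and 1 in 4T1, 1 and 1 in EL-4 and 2 and 1 in MCA203 infiltrates. In 4T1 infiltrates Apoe averaged 13.48, against 12.17 in healthy BALB/c spleens, but Mertk 8.46, against 9.81. T cell markers were also high in both C57BL/6 infiltrates, with a sum over 6 markers of 1130 to 1400 in EL-4 and 1370 to 2020 in MCA203 infiltrates, against 416 to 538 in healthy C57BL/6 spleens. Of the 6, 3 were called higher in each, and 1 was called lower in MCA203 infiltrates. The part of macrophages or T cells in the neuropilin values was not tested.

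Nrp2, the neuropilin known chiefly from lymphatic endothelium, followed another order. It was highest in EL-4 infiltrates, at 8.82, 9.02 and 8.99, against 6.17, 6.04 and 6.31 in healthy C57BL/6 spleens, with groups far apart (2.77 ± 0.17, adjusted p of limma 1.51e-12). 4T1 infiltrates read 8.11, 8.37 and 7.99, against 6.15, 6.00 and 6.11 in healthy BALB/c spleens (2.07 ± 0.17, adjusted p 2.38e-10). C26-GM spleens at 6.39, 6.55 and 6.89 (0.52 ± 0.17) and C26-GM infiltrates at 6.68, 6.46 and 7.04 (0.64 ± 0.17) stood above the healthy spleens by less than 2-fold. So did MCA203 infiltrates at 7.03, 7.12 and 6.97 (0.87 ± 0.17, adjusted p 0.000272), which the next probe set called higher at 1.45. EL-4 exceeded MCA203 infiltrates by 1.90 ± 0.17 (adjusted p 5.7e-09) and 4T1 exceeded C26-GM infiltrates by 1.43 ± 0.17 (adjusted p 2.53e-07).

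The neuropilins parted most in the cultures, in which Nrp1 fell and Nrp2 rose. Nrp2 read 7.97, 8.05 and 8.41 with IL-6 and 7.81, 8.35 and 7.99 with G-CSF, against 6.34, 6.56 and 6.25 in fresh marrow. Nrp1 read 6.67, 6.38 and 7.43 with IL-6 and 5.79, 6.72 and 6.09 with G-CSF, against 7.97, 7.92 and 7.98 in fresh marrow. For both genes no culture array overlapped the marrow on the probe set used. The dimmest Nrp2 probe set did overlap, at 3.95 to 4.48 with IL-6 and 3.51 to 4.34 with G-CSF, against 3.56 to 4.09 in fresh marrow. Nrp2 changed by 1.76 ± 0.17 and 1.66 ± 0.17 with IL-6 and G-CSF, and by 1.62 and 1.51 on the narrow and 2.03 and 1.96 on the wide culture arrays. Nrp1 changed by -1.14 ± 0.24 with IL-6 and -1.76 ± 0.24 with G-CSF. The fall with IL-6 was -1.44 on the narrow arrays but -0.53 (adjusted p of limma 0.13) on the wide ones and -0.58 with a term for the array set, so that call depends on the array set. It was also lost without the second IL-6 array (-0.91) and by the next brightest probe set (-0.75), while the fall with G-CSF was -2.02 on the narrow arrays and -1.24 on the wide ones. The dimmest Nrp1 probe set averaged 5.18 with IL-6 and 5.12 with G-CSF, against 5.83 in fresh marrow, under 2-fold in both.

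**Figure D4:**
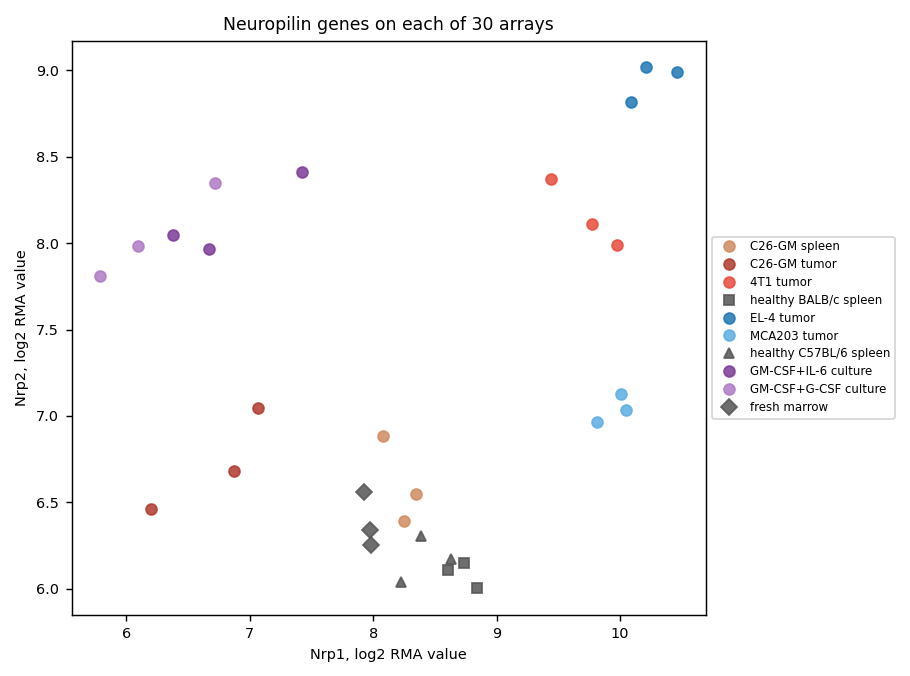
Nrp2 against Nrp1, both as log2 RMA values, with 1 point for each of the 30 arrays. EL-4 infiltrates lie high on both axes, MCA203 infiltrates high on Nrp1 with Nrp2 near 7.04, and the cultures high on Nrp2 with Nrp1 below fresh marrow.

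Among the partners of the neuropilins, the plexin Plxna1, which passes on semaphorin signals, rose in EL-4 infiltrates, at 9.03 ± 0.13 (SD), against 6.81 ± 0.17 in healthy C57BL/6 spleens (2.22 ± 0.17, adjusted p of limma 1.7e-10). It also rose in the cultures, at 8.31 ± 0.31 with IL-6 and 7.90 ± 0.28 with G-CSF, against 5.84 ± 0.16 in fresh marrow. Those were 3 of the groups with high Nrp2, while in 4T1 infiltrates, also high in Nrp2, Plxna1 differed from healthy BALB/c spleen by -0.18 ± 0.17. Plxnd1 rose in EL-4 (1.07) and fell in MCA203 infiltrates (-1.27). Of the 7 class 3 semaphorins measured, Sema3a fell in EL-4 infiltrates (-1.16), and no other was called in the 7 comparisons with spleen or marrow, where the changes of the other 6 lay between -0.58 and 0.82.

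**Figure D5:**
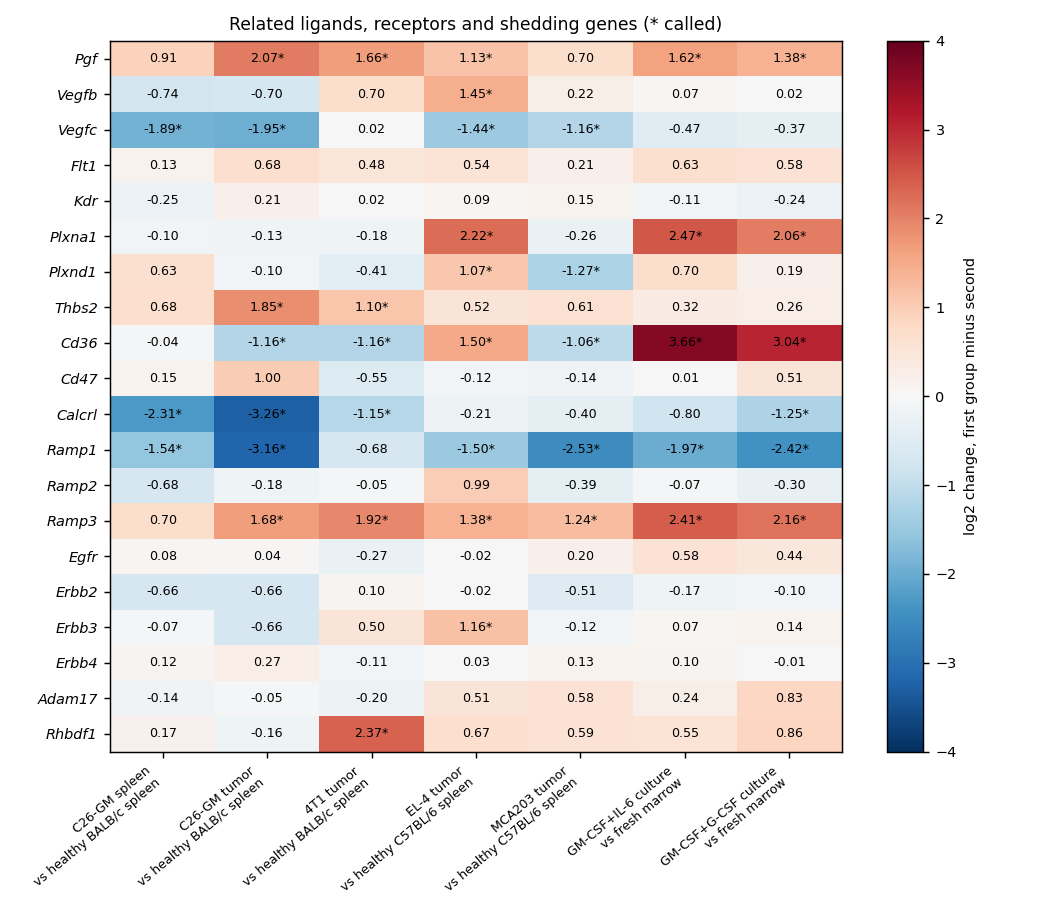
Log2 changes of 20 related ligands, receptors and shedding genes (rows) in 7 comparisons with healthy spleen or fresh marrow (columns), with red for higher and blue for lower in the first-named group and an asterisk where called. Ramp3 is higher in 6 columns, Ramp1 lower in 6, and Flt1, Kdr and Egfr carry no asterisk.

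Other vessel-growth genes, 16 in all, gave 5 rises and 1 fall in 4T1, 5 rises and 1 fall in EL-4, 4 rises and 4 falls in C26-GM and 1 rise and 1 fall in MCA203 infiltrates. Their median changes were 0.26, 0.81, -0.22 and 0.16, beside -0.01, 0.02, 0.11 and 0.14 over all genes. All genes were called higher in 6.83%, 6.42%, 4.26% and 5.01% and lower in 5.44%, 4.40%, 7.13% and 5.42% of cases in that order, so the MCA203 counts are near the share of all genes. The platelet-derived growth factors Pdgfa and Pdgfc rose in 4T1 (1.85 and 2.30) and EL-4 infiltrates (1.91 and 1.67), and Pdgfc fell in C26-GM infiltrates (-1.84). The urokinase Plau rose in C26-GM spleens (3.93), C26-GM infiltrates (2.99) and 4T1 infiltrates (4.00), together with its receptor Plaur (1.49, 2.92 and 1.80). Prok2, a vessel-growth peptide of myeloid cells, rose in those 3 groups as well (1.10, 2.08 and 3.04). Against these rises, Hgf was called lower in 5 of the 7 comparisons with healthy spleen or fresh marrow (changes of -1.6 to -0.29). Mmp9 was called lower in 2 of them (-4.56 to -0.47), and neither gene was called higher in any. The chemokine Cxcl12 fell in both cultures (-5.23 with IL-6 and -5.11 with G-CSF), in C26-GM spleens (-1.74) and in C26-GM (-2.48) and 4T1 infiltrates (-1.94), and rose in EL-4 infiltrates (1.16). In the cultures the fibroblast sum was 243 to 333 with IL-6 and 204 to 270 with G-CSF, against 756 to 2370 in fresh marrow, and its part in the Cxcl12 values was not tested.

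Between C26-GM infiltrates and C26-GM spleens, Thbs1 and Hbegf rose and Nrp1 fell among the 7 genes (2.79% of all genes called higher and 3.36% lower, 6.16% either way). Without the third C26-GM tumor array Vegfa (1.40) and Adm (1.08) were called as well. Vegfa was also called there by its other probe set (1.23) and by the mean of its probe sets (1.04), and Adm with housekeeping centring (1.04). Between 4T1 and C26-GM infiltrates 5 genes rose and Thbs1 fell (8.95% of all genes called higher and 3.90% lower, 12.9% either way), and between EL-4 and MCA203 infiltrates Adm, Hbegf and Nrp2 rose (3.88% of all genes called higher and 1.40% lower, 5.28% either way). In the cultures Hbegf and Nrp2 rose and Nrp1 fell, with IL-6 (5.00% of all genes called higher and 9.07% lower, 14.1% either way) and with G-CSF (4.48% higher and 9.37% lower, 13.9% either way). Between the 2 cultures no gene of the 7 was called by limma (0.456% of all genes called higher and 0.198% lower, 0.654% either way), and 2 had an unadjusted p below 0.05, Thbs1 (-0.84 ± 0.39) and Nrp1 (0.62 ± 0.24). Between healthy C57BL/6 and healthy BALB/c spleens 0 genes were called (0.654% of all genes called higher and 0.742% lower, 1.40% either way) and 0 had an unadjusted p below 0.05, with changes of -0.40 to 0.47. Between fresh marrow and healthy BALB/c spleens Vegfa and Thbs1 were higher and Hbegf lower (5.76% of all genes called higher and 7.49% lower, 13.3% either way). In the strain contrast of tumor effects Nrp1 was called higher and Hbegf lower in C57BL/6 models (2.83% of all genes called higher and 2.11% lower, 4.93% either way).

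For each gene the 3 genes with the most similar group means were taken from 2952 genes whose group means spanned at least 2 log2 units, by Pearson correlation over the 10 group means, which share their arrays. Vegfa was closest to Fat1 (0.979), Tgfb3 (0.975) and Fhl2 (0.961), and Thbs1 to Hacd1 (0.969), Aprt (0.950) and Nt5dc2 (0.921). Adm was closest to Prss23 (0.953), Pdgfa (0.953) and Urah (0.944), and Hbegf to Alkbh2 (0.931), Il6 (0.921) and Mex3d (0.921). Ereg was closest to Tfap2a (0.971), Fgfbp1 (0.966) and Prkg2 (0.962). Nrp1 was closest to Dnajb4 (0.963), Plaat3 (0.960) and Pdlim4 (0.954), and Nrp2 to Nectin2 (0.947), Smyd2 (0.928) and Dcstamp (0.921). Among the 7 genes themselves the correlation was 0.84 between Hbegf and Ereg, 0.80 between Vegfa and Ereg, 0.14 between Nrp1 and Nrp2 and -0.38 between Thbs1 and Nrp1.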

How the data were processed

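CD11b+ cells of 30 samples were measured on Affymetrix MOE430 2.0 arrays, 3 in each of 10 groups, with RNA extracted by Trizol and cleaned on columns, per the labels' protocols. The deposited values are log2 expression made by the authors with RMA, per the submitters' processing notes, which name no version. Arrays give no counting depth, and 3 arrays a group limit the precision. Of 45101 probe sets, 34958 had 1 gene symbol, 932 several and 9211 none listed. Of the first, 99.4% matched RefSeq, and 0 symbols were updated. Each of 18194 genes was read from its probe set with the highest mean. All arrays were fitted in limma 3.58.1 (R 4.3.3) with 10 group means, and p-values were adjusted (Benjamini-Hochberg) over all genes within each of 14 comparisons. The fit was tested on simulated data. Standard errors use 1 spread per gene over all groups. Marker sums add values on the linear scale. The strain contrast is the mean effect of EL-4 and MCA203 less that of C26-GM and 4T1 infiltrates. Named genes were the listed members, up to 4 called genes per list and comparison, receptors at any value, and 3 genes most like each member. The members and lists were chosen with earlier results of these data known. Alternatives covered scaling, renormalisation, arrays fitted, low-value filter, probe sets, variance prior, replicate block and each array left out. Figures were drawn with matplotlib 3.10.9 (Python 3.11.15). Replicate numbers were not used as pairs in the main fit, since 0 of 13 comparisons had every same-numbered pair correlated over 0.1 in its deviations. That rule cannot show that samples were unpaired. The same-numbered C26-GM infiltrate and spleen arrays gave 0.37, 0.06 and 0.47. Scanner files were not used here, so background correction and scan date were not varied.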

Additional observations from a re-analysis of the deposited data

Results flagged for a closer look

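For Hbegf the mean tumor effect differed between the C57BL/6 and the BALB/c models by -2.06 ± 0.35 log2 units (adjusted p of limma 0.000157), by a test of the difference itself. For Nrp1 the same contrast gave 2.20 ± 0.29 (adjusted p 5.46e-06). Nrp1 also differed between 4T1 and C26-GM infiltrates by 3.01 ± 0.24 (adjusted p 2.17e-10), with effects of opposite sign against the same healthy spleens. In all of these, tumor line, and for the first 2 also strain, cannot be told apart from what else differs between the mice.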

How the results depend on the processing

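Of 1540 recomputed changes of the 7 genes, 1499 kept their side of the threshold (a change of sign between values that were both uncalled is counted there), 22 lost and 18 gained a call, and 1 reversed: Vegfa in the IL-6 culture against fresh marrow was -1.86 by its next brightest probe set. The calls lost most often were Hbegf in EL-4 against MCA203 infiltrates (7 times, 0.92 with housekeeping centring), and Nrp1 in 4T1 infiltrates (5 times, 0.89 with it) and in the IL-6 culture (5 times, -0.53 on the wide arrays). Without IL-6 replicate 3, Adm was called in that culture (1.04). On all arrays the other Adm probe set averaged 3.73 there, against 3.88 in fresh marrow, so no direction can be given for Adm in that culture. The 3 genes called between C26-GM infiltrates and spleens became 5 without C26-GM tumor replicate 3 or without replicate 3 of both C26-GM groups, and their range was 3 to 5 with each array left out. Over all genes, 119 were called between IL-6 and G-CSF cultures, against 10 after renormalising, 2 with only the compared groups, 37 on the wide culture arrays, and 64 to 225 with each array left out. Against fresh marrow 2560 genes were called with IL-6 (4290 on the narrow arrays, and 2214 to 4288 with each array left out) and 2520 with G-CSF (4080, and 2223 to 4075). The array-set and next-probe-set alternatives were chosen after seeing the data. Housekeeping centring moved the median of all genes by -0.27 in EL-4 infiltrates against spleen, with 59.3% of calls higher before and 35.7% after, by -0.18 in 4T1 against C26-GM infiltrates (69.7% and 52.9%), by -0.16 in EL-4 against MCA203 infiltrates (73.5% and 53.2%), by 0.17 in C26-GM infiltrates against spleens (45.4% and 60.1%) and by -0.18 in the strain contrast (57.3% and 40.8%). In the cultures it moved by -0.13 with IL-6 (35.5% and 24.9%) and -0.14 with G-CSF (32.4% and 21.3%). The low-value filter left 12964 genes and removed Ereg. The replicate block left the 7 called genes in 4T1 infiltrates at 7 and changed no call of the 7 genes. The cause of these shifts was not tested.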
